A study of Mus musculus with 6 samples.

Results

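The 6 microRNAs (miRNAs) described here are mmu-miR-223, mmu-miR-342-3p, mmu-miR-142-5p, mmu-miR-146b, mmu-miR-22 and mmu-miR-21 (mmu for mouse, left out from here on), which are known from monocytes, macrophages and osteoclasts. They were picked by name as guide strands, out of 709 miRNA assays on a real-time PCR array, and all 6 belong to the 95 assays (13.4%) with a value in every sample. The samples were osteoclasts, cells of myeloid origin that resorb bone, sorted magnetically from mouse bone marrow for the surface proteins OSCAR and CTR. In the group called intact here (OCmiR-Intact, 3 samples) the osteoclast miRNAs were left in place, and in the knockdown group (OCmiR-KD, 3 samples) they were knocked down. The sources used here do not name the target of the knockdown, the promoter that drives it, or the strain and age of the mice. The design text describes RNA of 3 mice per group as pooled, so the 3 samples of a group may be repeats of a pool, and the p-values then measure a spread that may be technical.

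miRNAs are short RNAs that guide the silencing machinery to messenger RNAs, mainly through the seed, bases 2 to 8 counted from the 5′ end. In the myeloid lineage the transcription factor PU.1 switches on several of them, miR-223 among them. Inflammatory signals acting through NF-kB induce miR-155 and miR-146a. Members of the miR-146 family dampen such signals by repressing Traf6 and Irak1. The same adaptor Traf6 works below RANK, the receptor that drives osteoclast formation, and miR-21 is induced in osteoclast precursors through c-Fos.

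The assayed sequences show which molecule each reading stands for, with the seed in capitals:
miR-223: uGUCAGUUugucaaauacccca
miR-342-3p: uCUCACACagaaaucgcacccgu
miR-142-5p: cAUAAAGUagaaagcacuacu
miR-146b: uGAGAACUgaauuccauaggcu
miR-22: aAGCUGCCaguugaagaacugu
miR-21: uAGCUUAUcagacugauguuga

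The 6 members carry 6 different seeds. Only miR-146b and miR-21 share theirs with another assay on the array, miR-146a and miR-590-5p respectively, and neither of those had a value. The deposited sequences of the 6 members and of miR-155, miR-146a and miR-142-3p were each identical to a mature mouse miRNA in RefSeq (9 of 9). On GRCm38.p6 miR-223 lies at chrX:96242884-96242905 on the plus strand, within the span of the noncoding gene F630028O10Rik. miR-342-3p lies at chr12:108658680-108658702 (plus) within the span of the protein-coding gene Evl. miR-142-5p lies at chr11:87756867-87756887 (plus), with the hairpin of Mir142b on the other strand. miR-146b lies at chr19:46342790-46342811 (plus) within the span of the noncoding gene Gm36493. miR-22 lies at chr11:75463772-75463793 (plus) within that of its noncoding host Mir22hg. miR-21 lies at chr11:86584120-86584141 (minus) within the span of the protein-coding gene Vmp1. Whether these positions are exonic or intronic was not analysed here.

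Levels are delta Ct with the sign turned, log2 values relative to the small nuclear RNA U6 in the same sample. Delta Ct is the threshold cycle (Ct) of the miRNA minus that of U6, and 1 cycle stands for about 2 times as much template. Knockdown was compared with intact by limma over the 95 assays, with Benjamini-Hochberg adjustment and a threshold of 0.05. A limit holds for every difference below. On the linear scale relative to U6 of plate 1, the 3 knockdown values of all 6 members, and of 88 of the 95 assays, average 1 to within 0.001, which is the case for 0 of the 95 in the intact group. The knockdown mean is therefore not a free measurement. The deposited Ct values of these assays already hold this fixed mean, so a comparison without U6 is not free of it. "Fell" below says that the intact values as deposited are higher than this mean. Whether intact values were multiplied by the same factor, which would leave the folds as they are, is not stated. The level of 1 assay against another also depends on the primers.

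All 6 members fell relative to U6, as did 80 of the 95 assays tested (84.2%), while 0 rose, with 0 also at an unadjusted p under 0.05. The median difference was -5.50 log2 units over the 6 members and -4.54 over all 95 assays. In all 6 the highest knockdown sample lay below the lowest intact sample, which was so for 78 of the 95 assays (82.1%). The share of members that fell is therefore read against a background in which most assays fell.

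**Figure D1:**
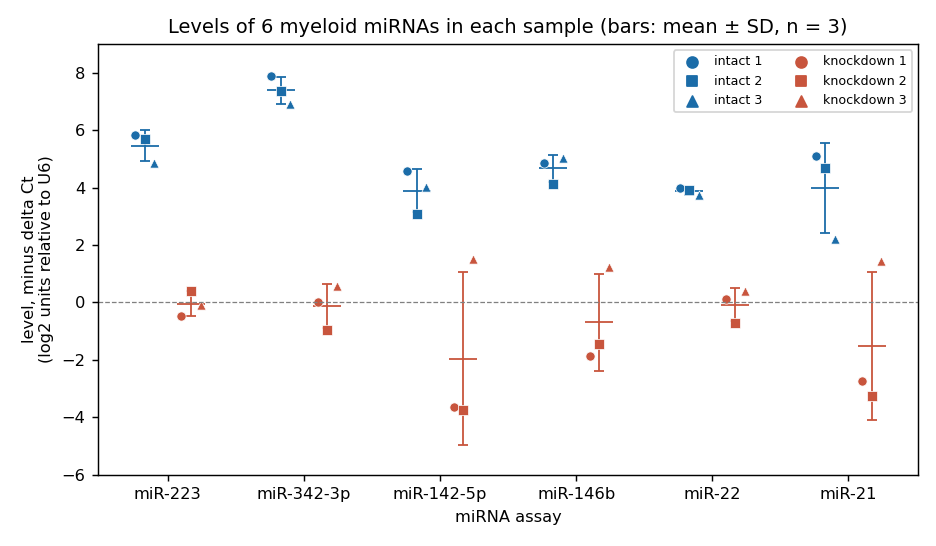
Level (minus delta Ct, log2 relative to U6, vertical axis) of the 6 miRNAs (horizontal axis) in each of 3 intact (blue) and 3 knockdown (red) samples, with the mean and SD of each group. The groups do not overlap for any of the 6, and the gap is smallest for miR-21, where knockdown 3 stands at 1.46 and intact 3 at 2.20.

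miR-223, the most myeloid-restricted of the 6 and a regulator of granulocyte and osteoclast precursors, had levels of 5.83, 5.71 and 4.85 in intact samples 1 to 3. In knockdown samples 1 to 3 it stood at -0.46, 0.41 and -0.08. The groups were separated by 4.44 log2 units, and intact 3 was the lowest of the intact samples. The mean went from 5.46 ± 0.54 to -0.04 ± 0.43 (SD, n = 3 each), and miR-223 fell by 5.50 (SE 0.53, 95% interval -6.73 to -4.28, limma adjusted p = 3.93e-05). Its knockdown values were the tightest of the 6.

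miR-342-3p, which is processed from within the Evl gene and is known to rise in myeloid differentiation, had the highest readings of the 6, at 7.89, 7.35 and 6.93 in the intact samples. In the knockdown samples it read 0.00, -0.96 and 0.57, the first of these at exactly the Ct of U6 (31.1 cycles). The gap between the groups, 6.36 log2 units, was the widest of the 6. The mean went from 7.39 ± 0.48 to -0.13 ± 0.77 (SD, n = 3 each), and it fell by 7.52 (SE 0.58, 95% interval -8.87 to -6.16, limma adjusted p = 2.73e-05). This was rank 8 among the falls of the 95 assays, beside rank 7 by intact level.

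miR-142-5p comes from a hairpin made in nearly all blood cells. It had levels of 4.58, 3.10 and 4.01 in the intact samples. In the knockdown samples the levels were -3.65, -3.75 and 1.51, so that knockdown 3 lay over 5 log2 units above the others and 1.59 below the lowest intact sample. The mean went from 3.90 ± 0.75 to -1.96 ± 3.01 (SD, n = 3 each), and it fell by 5.86 (SE 1.37, 95% interval -9.06 to -2.66, limma adjusted p = 0.00421). By knockdown SD it had rank 3 among the 95 assays. Without knockdown 3 the difference was -7.60, and it was -5.02 without knockdown 1 and -4.96 without knockdown 2.

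miR-146b, a brake on Toll-like receptor and NF-kB signalling, had levels of 4.85, 4.12 and 5.03 in the intact samples. It read -1.86, -1.45 and 1.24 in the knockdown samples, again with knockdown 3 on top. The groups were 2.88 log2 units apart. The mean went from 4.66 ± 0.48 to -0.69 ± 1.68 (SD, n = 3 each), and it fell by 5.36 (SE 0.86, 95% interval -7.35 to -3.36, limma adjusted p = 0.000584), with a difference of -6.32 without knockdown 3.

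miR-21, which represses Pdcd4 and promotes osteoclast formation, was the least even of the 6 in intact cells, with levels of 5.09, 4.68 and 2.20. The knockdown levels were -2.73, -3.25 and 1.46. Intact 3 and knockdown 3 were thus only 0.74 log2 units (1.67-fold) apart. On the Ct scale as deposited, without subtracting U6, they crossed over. miR-21 had a Ct of 27.9 in knockdown 3 and of 28.1 in intact 3. It was the only member with such an overlap. For the other 5, every knockdown Ct was later than every intact Ct, as for 77 of the 95 assays (81.1%). The mean level went from 3.99 ± 1.57 to -1.51 ± 2.58 (SD, n = 3 each), and miR-21 fell by 5.50 (SE 1.34, 95% interval -8.62 to -2.37, limma adjusted p = 0.00517). The difference was -6.98 without knockdown 3 and -6.39 without intact 3. It was -4.88 without knockdown 1 and -4.63 without knockdown 2.

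miR-22 is a broadly expressed miRNA with roles in monocyte and dendritic cell development. Relative to U6 it was the most even of the 6 in intact cells, at 4.00, 3.91 and 3.73. On the Ct scale as deposited its intact SD was 0.69 cycles, against 0.55 for miR-146b. The knockdown levels were 0.12, -0.73 and 0.39, and the gap to the intact samples was 3.33 log2 units. The mean went from 3.88 ± 0.14 to -0.07 ± 0.59 (SD, n = 3 each). miR-22 fell by 3.95 (SE 0.51, 95% interval -5.13 to -2.77, limma adjusted p = 0.000179), the smallest fall of the 6.

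In their knockdown values the members split by spread. For miR-142-5p, miR-21 and miR-146b, knockdown 3 alone made up 94.9%, 91.5% and 78.6% of the summed linear value of the 3 knockdown samples. For miR-142-5p the linear values relative to U6 were 0.0798, 0.0741 and 2.85, and for miR-21 they were 0.151, 0.105 and 2.74. The other members were more even: the linear values were 0.730, 1.32 and 0.946 for miR-223, and 1.08, 0.603 and 1.31 for miR-22. A single knockdown sample exceeded 75% of the sum in 3 of the 6 members and in 13 of all 95 assays, and in 9 of those 13 that sample was knockdown 3. U6 of plate 1, the plate that holds all 6 members, was reached at 29.3 cycles in knockdown 3, against 31.1 and 30.6 cycles in knockdown 1 and 2. On plate 2 the order was different, with U6 at 31.2 cycles in knockdown 1, 29.95 in knockdown 2 and 30.2 in knockdown 3. Without U6, the SD of the knockdown Ct was 3.88 cycles for miR-142-5p, 3.43 for miR-21 and 2.58 for miR-146b. It was 1.09 for miR-223, 1.48 for miR-342-3p and 1.28 for miR-22. The part of U6 in the spread was not tested.

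**Figure D2:**
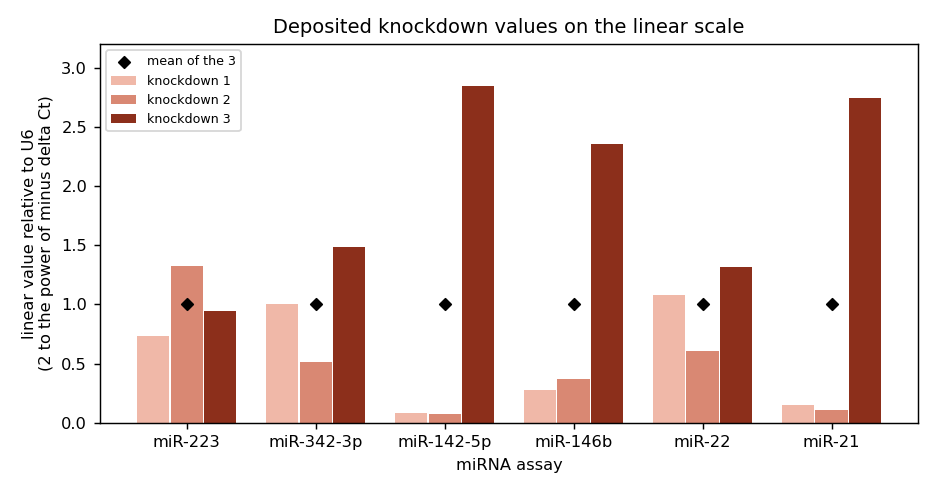
Linear value relative to U6 (2 to the power of minus delta Ct, vertical axis from 0) of each member in knockdown samples 1 to 3 (bars), with their mean (diamond). Each of the 6 means sits at 1, while knockdown 3 holds 94.9% of the sum for miR-142-5p and 31.5% for miR-223.

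The fold of a member depended on how the 3 values were averaged. In the authors' deposited table the folds of intact over knockdown were 183 for miR-342-3p, 58.0 for miR-142-5p, 45.4 for miR-223, 45.1 for miR-21, 40.9 for miR-146b and 15.5 for miR-22. These equal the folds from mean log2 levels. From arithmetic means of the linear values, miR-342-3p was at 174-fold and miR-223 at 45.9-fold, close to the former values, and miR-22 was at 14.8-fold. miR-146b, however, was at 26.3-fold, miR-21 at 21.4-fold and miR-142-5p at 16.2-fold. The fold of miR-142-5p was thus 3.58 times as large with log2 means as with arithmetic means, and that of miR-21 was 2.11 times as large. miR-142-5p was second among the 6 by the first reckoning and next to last by the other.

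Differences between members within a sample do not depend on U6, since all 6 stand on plate 1. They do depend on the fixed knockdown mean, which places members with even knockdown values close together in that group. The change of such a pair therefore mostly restates its intact difference. In 3 of the 15 pairs the groups did not overlap, and all 3 involved miR-342-3p. The share among pairs of other assays was not computed, so this count is not read as a result about miR-342-3p. It stood 3.51 ± 0.35 log2 units above miR-22 in the intact group and -0.06 ± 0.21 in the knockdown group (SD, n = 3 each), a change of -3.56 (exact permutation test, two-sided, p = 0.1, and 0.5 after adjustment over the 15 pairs). Against miR-146b its change was -2.16, and miR-223 gained 2.01 on it (exact permutation p = 0.1, adjusted 0.5 for both). With 3 samples against 3, 0.1 is the smallest p possible, so no pair could pass. None of the pairs among the other 5 members separated the groups. miR-223 minus miR-21 changed by -0.01, and that value was 1.49 without knockdown 3 and -1.10 without knockdown 2.

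Across the 88 assays with a fixed knockdown mean, the difference followed the intact level (Pearson r = -0.977). This describes assays that share samples and reference, and the fixed mean largely sets it in advance. miR-223, miR-342-3p and miR-22 lay close to that line. miR-142-5p, miR-21 and, less so, miR-146b lay below it, with mean knockdown levels of -1.96, -1.51 and -0.69. Uneven values lower the mean log2 level when the linear mean is fixed.

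**Figure D3:**
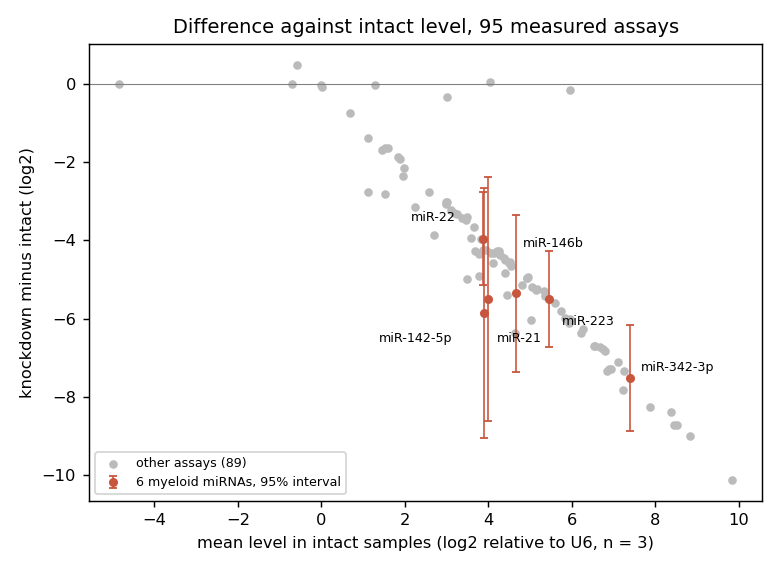
Knockdown minus intact (log2, vertical axis) against the mean intact level (log2 relative to U6, horizontal axis) of the 95 measured assays, with the 6 members in red and their 95% intervals from limma. The intervals of miR-142-5p (-9.06 to -2.66) and miR-21 (-8.62 to -2.37) are the widest of the 6.

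Relative to the other miRNAs, most members did not stand out. With knockdown means fixed, a centred difference still largely follows the intact level. When each sample was centred on the mean Ct of the 95 measured assays, which moved the median of all differences by 4.48 log2 units, 1 of the 6 members passed as lower, beside 19 lower (20%) and 19 higher (20%) of the 95. This was miR-342-3p (-3.03, SE 0.56, limma adjusted p = 0.00494). miR-142-5p was then at -1.38, miR-223 at -1.02, miR-21 at -1.01 and miR-146b at -0.87, none of which passed (smallest limma adjusted p among them 0.180). miR-22 turned to 0.53 (95% interval -0.61 to 1.67). After quantile normalization 0 of the 6 passed, with 5 lower (5.26%) and 8 higher (8.42%) of the 95. At an unadjusted p under 0.05 there was 1, miR-342-3p (-2.18, limma adjusted p = 0.0743). The medians over the members were -1.02 and -1.16 in these settings, against -0.06 and -0.14 over all 95 assays.

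**Figure D4:**
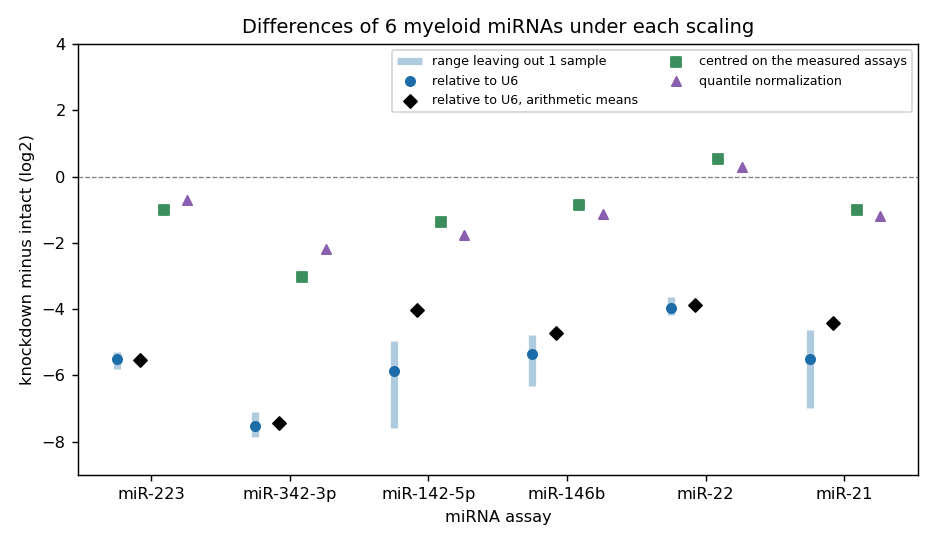
Knockdown minus intact (log2, vertical axis) of each member relative to U6 (circle, with the range on leaving out 1 sample), from arithmetic means, after centring on the measured assays and after quantile normalization. Only miR-22 crosses 0 after either rescaling, at 0.53 and 0.28, and miR-342-3p stays lowest in all 4.

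miR-155, the inflammatory miRNA of activated macrophages, miR-146a and miR-142-3p were Null in all 6 samples, intact and knockdown alike. The rule for Null is not stated, so this does not measure absence. In the Mir142 hairpin (GRCm38.p6, chr11:87756864-87756927, plus strand) the arm with values is in capitals and the Null arm takes up bases 40 to 62 of 64, and Mir342 (chr12:108658620-108658718, plus strand) is shown likewise, with its Null arm at bases 19 to 40 of 99:
Mir142: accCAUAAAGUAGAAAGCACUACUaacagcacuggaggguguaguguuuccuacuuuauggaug
Mir342: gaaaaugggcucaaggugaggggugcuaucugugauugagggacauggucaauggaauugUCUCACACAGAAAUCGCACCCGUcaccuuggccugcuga

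The assays miR-21*, miR-22* and miR-146b* were Null too, so that the other arm of the member hairpins had no value in 5 of 5 assays on the array. Most assays were Null, 614 of all 709 (86.6%), so this is not read as particular to these hairpins. The closest sequences among the members and Null assays are those of miR-146b, with values, and miR-146a, Null in all 6 samples. They differ at 2 of 22 bases, A18G and C21U, counted from the 5′ end with the miR-146b base first, here in capitals:
miR-146b: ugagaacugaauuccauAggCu
miR-146a: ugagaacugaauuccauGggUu

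Every other member was at least 7 edits away from any other assay, so that among the 6 only miR-146b has a near relative on the array. A list of miRNAs with roles in monocytes and macrophages other than the members, counting all arms, had 29 assays on the array, including the 7 Null assays miR-155, miR-146a, miR-142-3p, miR-342-5p, miR-21*, miR-22* and miR-146b* given above. Of the 29, 26 (89.7%) were Null and 3 had values, close to the share of Null among all assays (614 of 709, 86.6%). The 3, miR-23a, miR-24 and miR-378, all fell, beside 84.2% of all assays. miR-23a, from a cluster that favours myeloid over lymphoid fate, went from 5.92 ± 0.33 to -0.19 ± 0.87 (SD, n = 3 each), a difference of -6.11 (SE 0.59, limma adjusted p = 3.93e-05). miR-24 of the same cluster was at -4.95 (SE 0.48), but its values are also listed for miR-199a-3p. miR-378 was at -2.36 (SE 0.83, limma adjusted p = 0.0272). Centred on the measured assays, they stood at -1.63, -0.47 and 2.12, and 0 of the 3 passed.

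By root mean square distance of the levels over the 6 samples, the assay most like miR-223 was miR-652 (0.36 log2 units), and that most like miR-342-3p was let-7g (0.51). For miR-22 it was miR-92a (0.47), and for miR-146b it was miR-1895 (0.70). miR-142-5p (0.64) and miR-21 (1.00) had the same nearest assay, miR-144, an erythroid miRNA whose knockdown levels of -2.87, -3.03 and 1.45 are also highest in knockdown 3. The median distance of a member to the other 94 assays ran from 1.53 to 2.60. No nearest assay was itself a member, though miR-142-5p was the second nearest to miR-21 (1.09). The members are only 6 of the 95 assays, so this is not read as a result about them. With knockdown means fixed, the distance between assays with even knockdown values mostly reflects their intact levels.

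The sorted cells were set against miRNA markers of cell types. Of 6 myeloid markers 3 had values (miR-223, miR-142-5p and miR-342-3p), and their summed linear level was 167 to 317 in intact and 1.81 to 5.28 in knockdown samples. Markers of other cells also had values, and their part in the results was not tested. As most knockdown means are fixed at 1, a knockdown sum mostly reflects the number of assays summed. Whether intact values were multiplied by the factor that fixes these means is not stated. The intact sums of different lists are therefore not read as abundances. Of 7 epithelial markers 4 had values, with a summed level of 1135 to 1776 in intact and 3.14 to 5.26 in knockdown samples. Of 5 stromal markers 4 had values (223 to 430.3, and 3.55 to 4.61), of 4 lymphoid markers 3 (38.2 to 68.1, and 2.28 to 4.09), and of 3 erythroid markers 3 (14.9 to 17.2, and 1.44 to 5.02). The stromal markers with values include miR-199a-3p, which has the same values as miR-24. The megakaryocyte and endothelial marker miR-126-3p was at 9.08 to 43.8 and 0.541 to 1.33, and the liver marker miR-122 was at 103 to 131 and 0.268 to 1.76. Of 4 muscle markers 2 had values (8.34 to 52.2, and 0.988 to 2.92). A sum can hide a marker that did not fall. Relative to U6, 2 of the 3 erythroid and 1 of the 2 measured muscle markers passed as lower. All measured markers of the other lists did, beside 84.2% of all assays. In bulk samples fewer cells of a type and less RNA per cell cannot be told apart.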

How the data were processed

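Per the labels' protocols, RNA extracted with Trizol was turned into cDNA by the QuantiMir kit and run for 40 cycles of SYBR Green PCR on a ViiA7. The authors deposited threshold cycles, delta Ct on a log2 scale (Ct minus the Ct of U6 in the same sample and plate, as the values show) and, per the file headers, fold changes as the linear ratio of intact over knockdown. The Ct threshold, amplification efficiency and rule for Null are not stated in the sources used. Identifiers of plate row E, turned into scientific notation, were restored.

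Of 709 assays, 95 had a value in each of the 6 samples and 614 had none in any, so that 0 were partly Null. Assays with a Ct under 35 in at least 3 samples (95 of 95) were fitted with limma 3.58.1 in R 4.3.3 (no trend, no covariate). The step was tested on simulated data with free knockdown means and most assays unchanged. That test does not cover fixed means or a fall of most assays. Pairs of members were compared by exact permutation tests over samples. A PCR array has no read depth, and 3 samples a group limit the precision.

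The members and lists were chosen with earlier results of these data known. Named are the 6 members, miR-155, miR-146a and miR-142-3p, the measured assays of the other myeloid list, the nearest assay of each member, and assays that share a seed or values. miR-126-3p and miR-122 are named as the sole measured markers of their lists. Alternatives were other references, filters, variance priors and averages, a replicate block, and leaving out each sample.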

Additional observations from a re-analysis of the deposited data

How the results depend on the processing

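The falls of the 6 members and the counts over all assays kept their direction and side of the threshold without U6, without a Ct filter, with Ct under 30 in at least 3 samples, with a trended robust variance prior and on leaving out any 1 sample. Without U6, on Ct values that already hold the fixed mean, 84 assays were lower and the median over the members was -6.11. All 6 differences were then larger by over 1.5 times in fold, at -6.11 for miR-223, -8.12 for miR-342-3p, -6.47 for miR-142-5p, -5.96 for miR-146b, -4.56 for miR-22 and -6.10 for miR-21. Centred on the measured assays, 19 of the 95 assays were lower and 19 higher, 1 member was lower, and the median over the members was -1.02. After quantile normalization 5 were lower and 8 higher, 0 members were lower, and the median was -1.16. miR-22 turned positive in both, at 0.53 and 0.28. The cause was not tested. From arithmetic means the median was -4.57, since wide knockdown values weigh on the mean log2 level. Leaving out 1 sample gave 75 to 81 lower and 0 higher assays, 6 lower members each time, and a median of -6.65 (without knockdown 3) to -4.95 (without knockdown 1). Pairs of members whose groups did not overlap then numbered 3 to 8, with 5 without intact 2, intact 3 or knockdown 1 and 8 without knockdown 3, where fewer samples overlap less by construction. With the replicate number as a block, 6 members were lower with a median of -5.50, and it changed no call of a member. Samples with the same number correlated at 0.02, 0.10 and 0.08 in their deviations from the group means, so the numbers were not taken to pair the samples. The values rest on 3 samples a group whose knockdown means are fixed.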
